A study of Bos taurus with 32 samples.

Results

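CD2, CD3G, CD5, PRF1 and GZMB are genes of T lymphocytes and natural killer (NK) cells, and their expression was followed in liver biopsies of dairy cows around calving. The members were all probe sets that the array annotation gives to these 5 genes. They numbered 7 of the 24016 probe sets tested, 3 of them for CD2 and 1 for each other gene, and 5 of the 9155 genes with a symbol. The genes were chosen with the change from -8 d to 1 d and the change from -8 d to 9 d in these same arrays already known. The values over time are therefore a description with no test, and tests are given only for diet, for diet by time and for genes outside the 5.

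T cells recognise peptides through the T cell receptor, which signals into the cell through the CD3 chains that accompany it. CD2 and CD5 are surface glycoproteins that tune this signal. Cytotoxic T cells and NK cells kill their targets by releasing granules that hold perforin, which opens the target membrane, and granzymes, the proteases that enter through it. The liver holds resident and passing lymphocytes in its sinusoids, between hepatocytes that make up most of the tissue and of its RNA.

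The cows were Ayrshires followed through calving. For the last 6 weeks before the predicted calving, one set received feed of controlled energy (CON) and the other feed of high energy (HIGH). Biopsies were taken 8 d ahead of the predicted date (written -8 d), then 1 d past the actual calving and again at 9 d. The labels state neither age nor parity nor the diet after calving. CON cows gave 5 arrays at -8 d, 4 at 1 d and 6 at 9 d, and HIGH cows gave 5, 6 and 6. They came from 6 cows per diet, of which 8 cows (3 CON, 5 HIGH) had arrays on all 3 days. Values are log2 RMA values, the deposited brightness of a probe set after normalization between arrays, so a difference of 1 is a doubling.

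The tissue label was borne out by its defining transcripts. Albumin (ALB) was at 14.85 or above on every array, and transthyretin (TTR) lay between 13.79 and 14.40. The 5 lymphocyte genes lay far lower. Their brightest probe sets had means over all arrays of 6.32 for PRF1, 6.26 for CD2, 6.23 for CD3G, 4.84 for GZMB and 4.62 for CD5, at the 56.2, 55.2, 54.7, 34.6 and 31.2 percentile of all probe sets. Brightness depends on the probes, so these means do not rank the genes by abundance. In whole biopsies, fewer lymphocytes and less RNA per lymphocyte cannot be told apart.

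CD3G, the gamma chain of the CD3 signalling complex (probe set Bt.13934.1.S1_at), had the largest drop of the 5 genes at 1 d when the diets were averaged, and in CON alone those of PRF1 and GZMB were slightly larger. At -8 d the CON values were 5.50, 6.15, 6.42, 6.51 and 6.62, and the HIGH values were 6.42, 6.48, 6.66, 6.67 and 6.81. At 1 d the CON values were 5.33, 5.89, 6.04 and 6.06, and the HIGH values ran from 5.57 through a median of 6.01 to 6.47. At 9 d, from lowest through median to highest, the values were 5.16, 6.36 and 6.63 in CON and 6.05, 6.35 and 6.70 in HIGH. The days overlapped in CON, while in HIGH only cow 432 at 1 d reached above the lowest value of -8 d. The log2 difference between 1 d and -8 d, averaged over the diets, was -0.46 (SE 0.14), or 0.726-fold. It was -0.13 (SE 0.13) for 9 d against -8 d.

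Within cows the same order held without exception for CD3G at 1 d. All 8 cows with both days had a lower value at 1 d, by 0.12 (cow 529) to 0.71 (cow 460), with a median change of -0.43. Of all probe sets, 4.98% were lower in each of the 8 cows. At 9 d, 7 of 10 cows were still below their own value of -8 d, and 29.4% of probe sets were lower in at least 7 of 10.

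CD2, the adhesion receptor that binds CD58 on other cells, has 3 probe sets, and they did not move alike. The brightest (Bt.10954.2.S1_a_at) was at 6.29, 6.36, 6.37, 6.42 and 6.78 in CON and 6.16, 6.27, 6.33, 6.50 and 6.54 in HIGH at -8 d. It was at 6.15, 6.27, 6.30 and 6.41 in CON at 1 d, and between 5.85 and 6.32 in HIGH (median 6.20). At 9 d it spanned only 6.10 to 6.24 in CON and 6.20 to 6.39 in HIGH. The CON values at 9 d lay all below the CON values at -8 d, and other groups overlapped.

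Unlike CD3G, this CD2 probe set was as low at 9 d as at 1 d when the diets were averaged: both differed from -8 d by -0.20 (SE 0.06), and 8 of 8 cows were lower at 1 d and 9 of 10 at 9 d. For comparison, 7.17% of probe sets were lower in at least 9 of 10 cows at 9 d. The second CD2 probe set (Bt.10954.1.S1_at, mean 5.47) was lower in 3 and higher in 5 of 8 cows at 1 d. The dimmest (Bt.10954.2.S1_at), with a mean of 3.27 at the 8.2 percentile of all probe sets, was lower in 2 and higher in 6. Their log2 differences at 1 d were -0.11 (SE 0.11) and 0.11 (SE 0.06), so the drop of CD2 rests on 1 of its 3 probe sets.

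CD5 (Bt.4497.1.S1_at), a scavenger-receptor family protein that dampens T cell receptor signals, was the dimmest of the 5 genes and changed least of the single-probe-set genes. At -8 d it was at 4.40, 4.58, 4.65, 4.69 and 4.94 in CON and at 4.65, 4.70, 4.70, 4.78 and 4.84 in HIGH. At 1 d it was at 4.13, 4.42, 4.48 and 4.67 in CON and ran from 4.33 to 4.70 in HIGH (median 4.51). The 1 d values were on average 0.24 below -8 d (log2 difference -0.24, SE 0.07), with overlap in both diets, and 6 of 8 cows were lower (28.6% of probe sets were lower in at least 6 of 8). At 9 d the diets lay on different sides of their earlier level. The CON median was 4.76 after 4.65 at -8 d (difference 0.09, SE 0.10), and the HIGH median stayed at 4.51 after 4.70 at -8 d (difference -0.12, SE 0.10), with 3 of 5 HIGH cows below their own value of -8 d by 0.25 to 0.34. The average over the diets was -0.02 (SE 0.07), and the difference between the diets' changes did not pass (-0.21, SE 0.14, adjusted p = 1 by limma).

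PRF1 (Bt.21975.1.S1_at) encodes perforin. At -8 d it was at 6.19, 6.32, 6.57, 6.61 and 6.87 in CON and at 6.39, 6.49, 6.60, 6.65 and 6.67 in HIGH. At 1 d the CON values closed up to 5.98, 6.04, 6.09 and 6.16, all below the 5 CON values of -8 d, and the HIGH values ran from 5.82 to 6.54 (median 6.23) with only cow 432 above the lowest HIGH value of -8 d. At 9 d the values spread out again, from 5.62 to 6.56 in CON (median 6.25) and from 5.95 to 6.66 in HIGH (median 6.42). The values of 9 d thus reached both below and above all those of 1 d. The difference from -8 d was -0.39 (SE 0.10) at 1 d and -0.24 (SE 0.09) at 9 d, and 7 of 8 and 9 of 10 cows were lower (14.5% of probe sets were lower in at least 7 of 8 cows at 1 d).

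GZMB (Bt.7145.1.S1_at) encodes granzyme B, the protease that starts cell death in the target. In the RefSeq gene table (assembly ARS-UCD2.0) the loci on either side of it have no gene name. At -8 d it was at 4.69, 5.03, 5.05, 5.11 and 5.26 in CON and 4.79, 4.96, 5.01, 5.05 and 5.22 in HIGH. At 1 d it was at 4.29, 4.52, 4.73 and 4.86 in CON, and in HIGH it split into 4 cows from 4.22 to 4.60 and 2 cows at 5.10 (cow 432) and 5.13 (cow 529). At 9 d the ranges were 4.48 to 5.12 in CON (median 4.85) and 4.57 to 5.18 in HIGH (median 4.80). These 2 HIGH cows were the only ones of 8 that had a higher value at 1 d than at -8 d, by 0.09 and 0.34. The difference from -8 d was -0.35 (SE 0.10) at 1 d and -0.16 (SE 0.09) at 9 d, when 8 of 10 cows were lower (15.8% of probe sets were lower in at least 8 of 10).

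**Figure D1:**
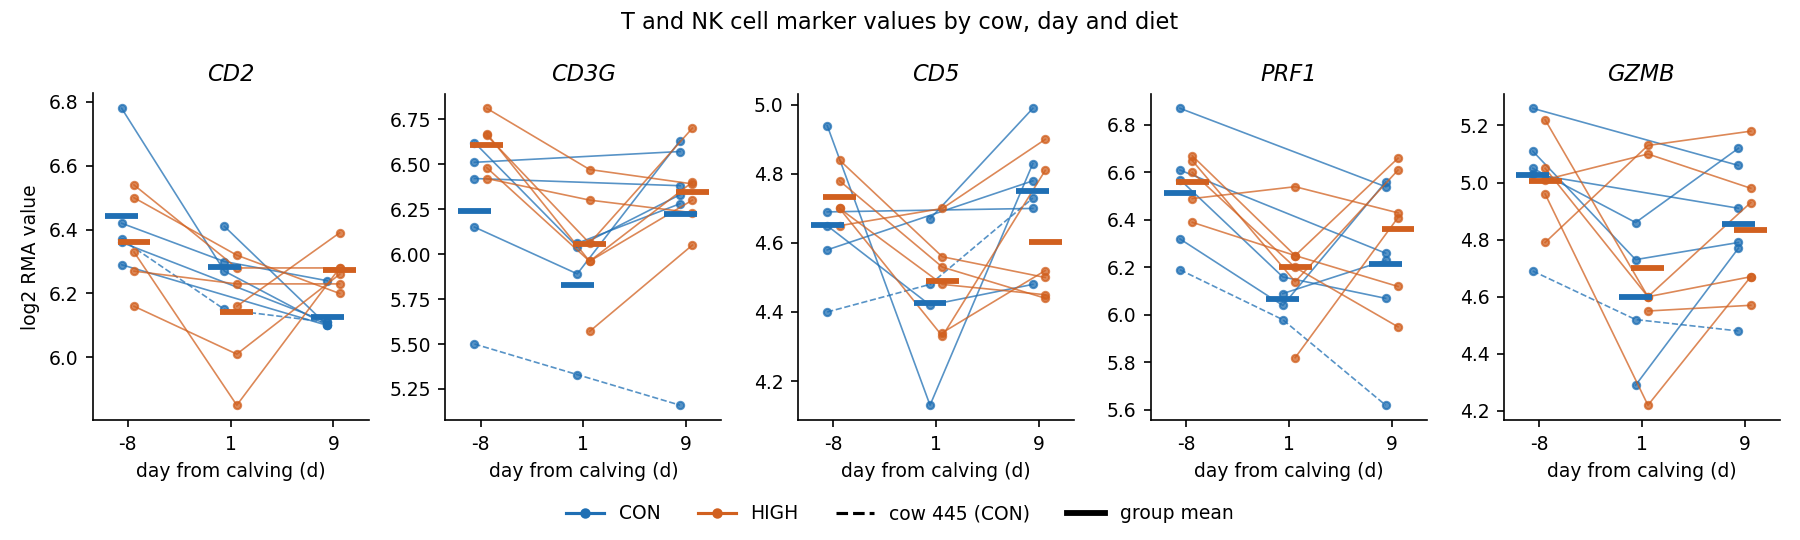
Log2 RMA value (vertical axis) of the brightest probe set of each gene against day from calving (horizontal axis, days evenly spaced and not to scale). Points are arrays, thin lines join the arrays of a cow (blue CON, orange HIGH, dashed cow 445), also across a missing day, and thick bars are group means; the means of all 5 genes are lower at 1 d than at -8 d in both diets, and cow 445 is lowest for CD3G on every day.

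Ordered by group mean, CD3G, PRF1, GZMB and CD5 had both groups of 1 d at the bottom. For CD3G, HIGH cows before calving stood first (6.61 ± 0.16, SD, n = 5), then HIGH cows at 9 d (6.35 ± 0.22, n = 6), CON cows before calving (6.24 ± 0.45, n = 5) and CON cows at 9 d (6.22 ± 0.54, n = 6), with HIGH (6.05 ± 0.31, n = 6) and CON (5.83 ± 0.34, n = 4) at 1 d last. PRF1 was highest before calving, at 6.56 ± 0.12 in HIGH and 6.51 ± 0.27 in CON, followed by 6.36 ± 0.28 and 6.21 ± 0.35 at 9 d and by 6.20 ± 0.23 and 6.07 ± 0.08 at 1 d. GZMB was likewise highest before calving (5.03 ± 0.21 in CON, 5.01 ± 0.16 in HIGH), then at 9 d (4.85 ± 0.23, 4.83 ± 0.23), and lowest at 1 d (4.70 ± 0.35 in HIGH, 4.60 ± 0.25 in CON). The ranges of neighbours in these 3 orders overlapped.

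For CD2 the order ran from CON (6.44 ± 0.19) and HIGH (6.36 ± 0.16) before calving through CON at 1 d (6.28 ± 0.11) and HIGH at 9 d (6.27 ± 0.07) to HIGH at 1 d (6.14 ± 0.18) and CON at 9 d (6.13 ± 0.06). CD5 was highest in CON at 9 d (4.75 ± 0.17), then HIGH (4.73 ± 0.08) and CON (4.65 ± 0.20) before calving and HIGH at 9 d (4.60 ± 0.20), and lowest in HIGH (4.49 ± 0.14) and CON (4.43 ± 0.22) at 1 d. Neighbours overlapped here too. Taken separately, the change from -8 d to 1 d in CON and in HIGH was -0.39 and -0.54 for CD3G, -0.42 and -0.35 for PRF1, -0.40 and -0.30 for GZMB, -0.24 in both for CD5 and -0.17 and -0.22 for CD2, with SEs from 0.08 to 0.20. With only the 8 cows sampled on all 3 days, the averaged difference at 1 d was -0.40 for CD3G, -0.29 for PRF1, -0.26 for GZMB, -0.27 for CD5 and -0.25 for the brightest CD2 probe set. With the 3 probe sets of CD2 averaged, its difference was -0.07 at 1 d and -0.09 at 9 d.

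From 1 d to 9 d the same arrays of 1 d enter again, so the values stand beside the earlier ones and are no separate evidence. The log2 differences were 0.33 (SE 0.13) for CD3G, 0.22 (SE 0.07) for CD5, 0.19 (SE 0.09) for GZMB, 0.14 (SE 0.10) for PRF1 and -0.01 (SE 0.06) for the brightest CD2 probe set. GZMB was higher at 9 d in 8 of 10 cows, CD3G and CD5 in 7 of 10 and PRF1 in 5 of 10. The share of all probe sets higher in as many cows was not counted for these days. For CD2 the 2 diets pointed apart, with -0.15 (SE 0.09) in CON and 0.13 (SE 0.08) in HIGH.

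**Figure D2:**
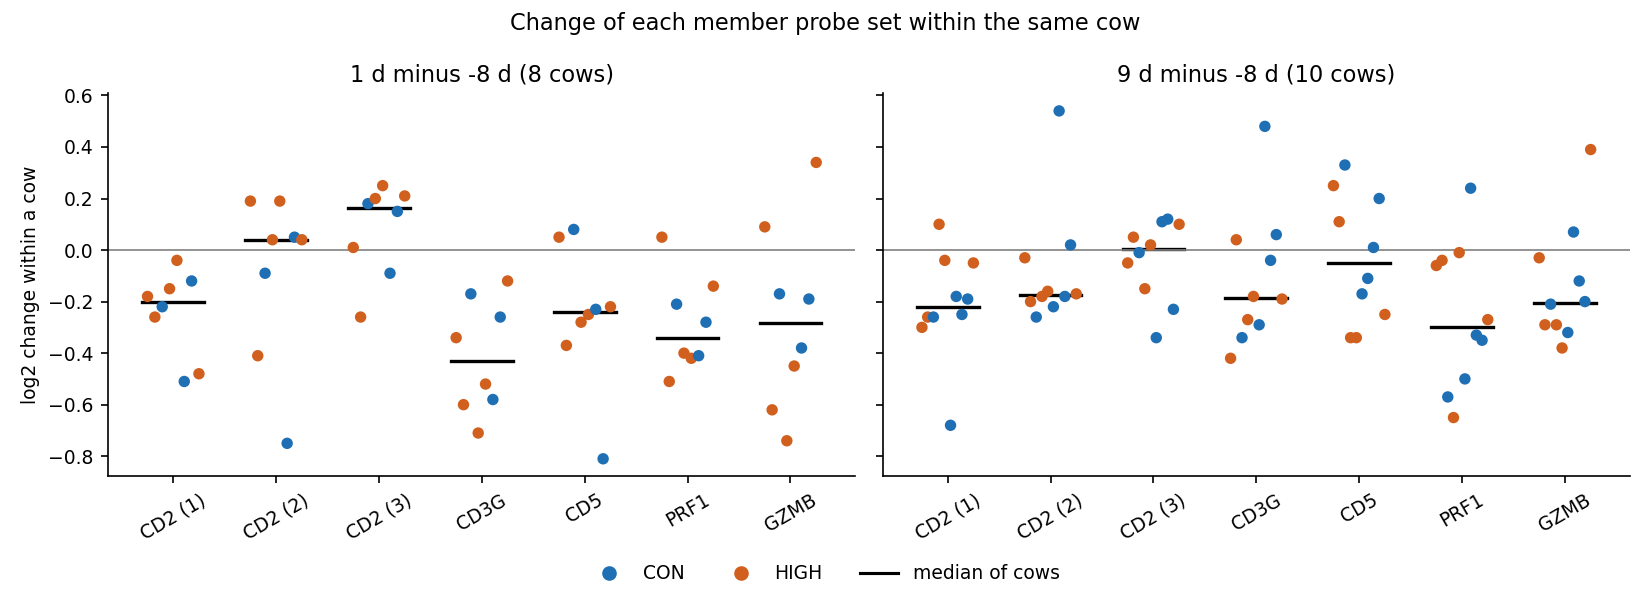
Log2 change within a cow (vertical axis) for the 7 probe sets (horizontal axis; CD2 1 to 3 from brightest to dimmest), for 1 d minus -8 d (left, 8 cows) and 9 d minus -8 d (right, 10 cows), with a point per cow (blue CON, orange HIGH) and the median as a bar. CD3G and the brightest CD2 probe set are below 0 in all 8 cows at 1 d, whereas the dimmest CD2 probe set has its median above 0.

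Other measures moved over the same days. Of all genes, 16.5% rose and 12.3% fell at 1 d against -8 d. Of 9 measured neutrophil markers, 4 rose and 0 fell (median 0.05). The 4 were S100A12 (2.43), S100A8 (1.66), LTF (1.54) and S100A9 (0.80). The summed linear level of all 9 was 633 to 974 at -8 d, 1250 to 9040 at 1 d and 697 to 2190 at 9 d. Such a sum is weighted by the genes with large rises, and the number of neutrophils was not measured. None of 6 erythroid markers passed at 1 d by limma, and 1 had an unadjusted p under 0.05, as did 3683 of the 9155 genes. At 9 d against -8 d 2 of the erythroid markers fell, when 5.08% of all genes did. Their summed level was 137 to 928 (median 300.0) at -8 d, 142 to 507 (median 188) at 1 d and 127 to 232 (median 155) at 9 d. Of 5 B and plasma cell markers 0 passed by limma on either day and 0 had an unadjusted p under 0.05, with sums of 698 to 2200, 771 to 2050 and 734 to 2530.

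Markers of resident liver cells were read at 1 d as well, when 12.3% of all genes fell and 16.5% rose. Of 12 stellate cell and fibroblast markers 2 fell (16.7%) and 1 rose (8.33%), with 9 below 0 and a median of -0.12. Of 7 cholangiocyte markers 2 fell (28.6%, median -0.08), and of 14 hepatocyte markers 7 fell (50%) and 5 rose (35.7%, median -0.09). Of 12 Kupffer cell and macrophage markers 2 fell (16.7%) and 1 rose (8.33%, median -0.01), and of 11 endothelial markers 1 fell (9.09%, median 0.00). Several of these shares were near those of all genes. The stellate median exceeded in size the -0.10 of the other T and NK cell genes given further on. Those of hepatocytes and cholangiocytes were near it, and the rest were smaller. The summed level of the 5 genes described was 248 to 363 at -8 d, 219 to 322 at 1 d and 203 to 338 at 9 d. The array's elongation factor (EF1a) control probe sets, read as the 3' value minus that of the 5' end, gave -0.684 ± 0.119 (SD, 10 arrays) before calving, -1.07 ± 0.154 (10 arrays) on the first day after it and -0.81 ± 0.134 (12 arrays) later. The same quantity was 0.543 ± 0.061, 0.534 ± 0.128 and 0.579 ± 0.065 for the GAPD control and 1.599 ± 0.268, 1.61 ± 0.230 and 1.78 ± 0.698 for the actin control, so of the 3 controls EF1a differed most between -8 d and 1 d. The part of any of these in the lower lymphocyte values was not tested.

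Diet was tested, since it was not used to choose the genes. No member passed on any day by limma. At -8 d, 0 of 7 probe sets passed and 0 had an unadjusted p under 0.05 (0% of all probe sets passed). At 1 d the counts were 0 and 1 (0.00416% of all passed), and at 9 d 0 and 0 (0% of all passed).

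The largest difference at -8 d was that of CD3G, 0.34 higher in HIGH (95% interval -0.07 to 0.75, adjusted p = 1), a group in which all 5 values were at or above 6.42 while CON held the 5.50 of cow 445. Without cow 445 it was 0.17. At 1 d CD3G differed by 0.19 (-0.22 to 0.61), and at 9 d by 0.12 (-0.26 to 0.50), which turned to -0.09 without cow 445. The intervals of PRF1 were -0.26 to 0.34, -0.20 to 0.42 and -0.13 to 0.43 on the 3 days, and those of GZMB -0.32 to 0.28, -0.22 to 0.39 and -0.30 to 0.25, so differences up to these bounds in either direction are not told from 0 at this number of cows. CD5 differed by at most 0.15 in size (9 d, interval -0.35 to 0.06).

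The brightest CD2 probe set was lower in HIGH at -8 d (-0.08, interval -0.27 to 0.10) and 1 d (-0.13, -0.32 to 0.06) and higher at 9 d (0.15, -0.02 to 0.32), where all 6 HIGH values exceeded 5 of the 6 CON values. Its change from -8 d to 9 d was -0.32 (SE 0.08) in CON and -0.09 (SE 0.08) in HIGH. The difference between these changes was 0.23 (SE 0.11, unadjusted p = 0.053, adjusted p = 1 by limma). Of the 7 probe sets, 0 passed for diet by time at 1 d or at 9 d, none had an unadjusted p under 0.05, and 0% of all probe sets passed in either.

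**Figure D3:**
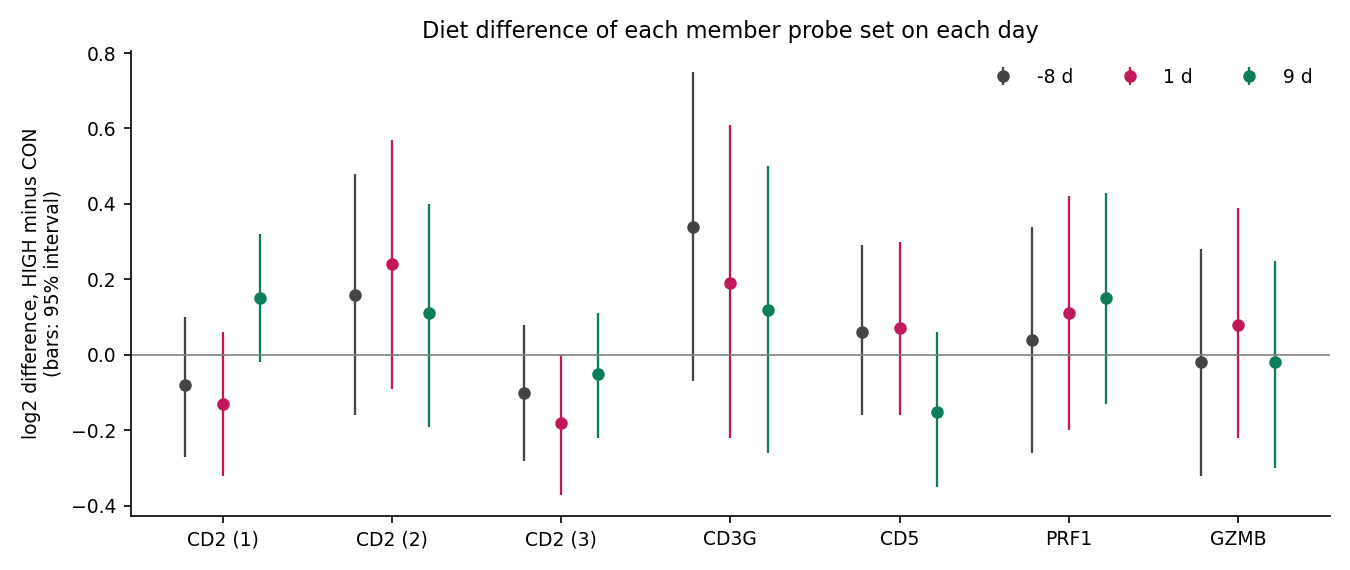
Log2 difference HIGH minus CON (vertical axis, points with 95% intervals from the fit) for the 7 probe sets (horizontal axis; CD2 1 to 3 from brightest to dimmest) on each of the 3 days. Nearly all intervals include 0, the dimmest CD2 probe set at 1 d touches it, and CD3G at -8 d has the largest difference, 0.34.

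The wider T and NK cell machinery was read from 8 lists of other genes, of which 60 were measured. The lists were chosen with earlier results of these data known. At 1 d against -8 d, 11 of the 60 fell and 2 rose (adjusted p under 0.05 by limma over all probe sets), where 12.3% of all genes fell and 16.5% rose. In these 60 the shares were 18.3% and 3.33%. Their median difference was -0.10, against 0.00 over all genes, and 45 of 60 were below 0. The count of falls was 7 without HIGH -8 d replicate 2 (cow 439), and 7 with only the cows with all 3 days.

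Outside CD3G, which is given with no test, the receptor complex gave no call. Of 6 other genes of the complex and its co-receptors, none passed, and the median was -0.13. CD3E and CD3D lie beside CD3G in the genome and encode the other CD3 chains of the surface complex. CD3E was at -0.20 (SE 0.08, adjusted p = 0.07) and CD3D at -0.02 (SE 0.08). The zeta chain CD247 was at -0.15 (SE 0.07), CD8A, a co-receptor of cytotoxic T cells, at -0.17 (SE 0.12), and CD4 at 0.01 (SE 0.08). The drop of CD3G was larger than that of every other measured chain. CD3G was chosen with this change known, which favours such an order, and the order was not tested.

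Of 13 surface and co-stimulation genes, CD96 (a receptor of T and NK cells; -0.34, SE 0.09, adjusted p = 0.0046) and CD6 (a relative and genomic neighbour of CD5; -0.16, SE 0.05, adjusted p = 0.028) fell. A second probe set of CD6 was at 0.05. Of 8 genes of T cell receptor signalling, PRKCQ (a kinase downstream of the receptor; -0.49, SE 0.10, adjusted p = 0.000751) and SH2D1A (the adaptor SAP; -0.37, SE 0.13, adjusted p = 0.0418) fell, and 6 of the 8 were below 0. Of 8 NK cell receptors all were below 0, and KLRB1 (-0.29, SE 0.09, adjusted p = 0.013) and NCR3 (an activating receptor; -0.21, SE 0.08, adjusted p = 0.0489) fell. The calls of NCR3, SH2D1A and of IKZF3 (given further on) were lost in several alternatives, and a second probe set of KLRB1 was at 0.03. The KLRB1 probe set that fell was dim, with a mean of 3.55, near the 3.27 of the dimmest CD2 probe set. NCR3 and LTB (also given further on) count as separate falls, but the names of their probe sets start with the same number. Whether these probe sets measure separate transcripts was not tested.

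The killing proteins other than perforin and granzyme B moved in both directions. CTSC, the lysosomal protease that activates granzymes and is also made outside lymphocytes, rose by 0.72 (SE 0.15, adjusted p = 0.000728), and LAMP1, a lysosomal membrane protein of most cells, fell by 0.15 (log2 difference -0.15, SE 0.03, adjusted p = 0.00125) in 1 of its 2 probe sets. Granulysin (GNLY) was at -0.31 (SE 0.16, adjusted p = 0.153), and NKG7 at 0.07 (SE 0.14). Of 8 measured, 1 rose and 1 fell.

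Of 8 cytokines and chemokines, 3 fell. CCL3 (-0.46, SE 0.06, adjusted p = 6.83e-07) and CCL4 (-0.57, SE 0.17, adjusted p = 0.015) are chemokines of activated T cells, NK cells and macrophages, and LTB (-0.53, SE 0.13, adjusted p = 0.00226) is lymphotoxin beta. The dimmest of the 3 probe sets of CCL3 was at -0.01 and the dimmer of LTB at -0.04. Of 5 transcription factors IKZF3 fell (-0.28, SE 0.10, adjusted p = 0.0475). The brightest probe set of ETS1, another of them, did not pass (0.14), but a dimmer one rose (0.27, adjusted p = 0.0171 by limma). Outside this list, dimmer probe sets of PTPRC (-0.22, adjusted p = 0.0124 by limma) and FASLG (-0.15, adjusted p = 0.0273 by limma) fell. None of these dimmer probe sets enters the counts. Of 4 ligands and partners CD58, the ligand of CD2, rose by 0.35 (SE 0.07, adjusted p = 0.000573), and its other 2 probe sets were at 0.47 and 0.17.

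**Figure D4:**
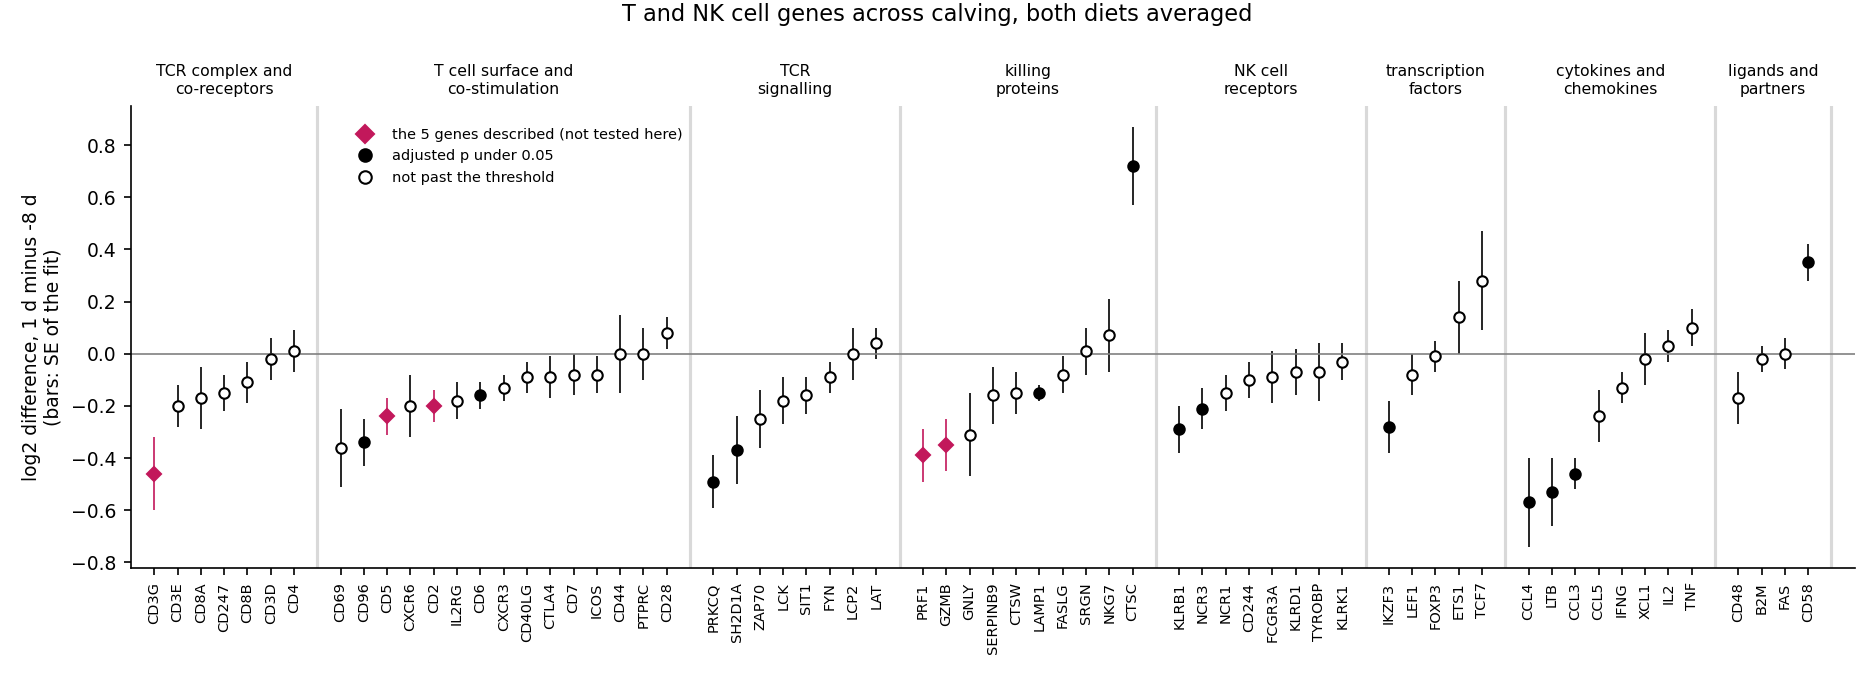
Log2 difference 1 d minus -8 d averaged over the diets (vertical axis, bars are SEs of the fit) for each measured T and NK cell gene (horizontal axis), grouped by list. Filled circles are genes past the threshold, open circles are not, and diamonds are the 5 genes described; most points lie below 0, and CTSC and CD58 are the 2 that rose.

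At 9 d against -8 d, 6 of the 60 had an unadjusted p under 0.05, as did 2519 of the 9155 genes. None of the 60 passed by limma (5.08% of all genes fell and 7.79% rose). Without cow 445, 2 fell and 1 rose. From 1 d to 9 d, 6 rose (7.44% of all genes) and 2 fell (10% of all genes), with CCL4 at 0.72 (SE 0.16), LTB at 0.39 (SE 0.12), CCL3 at 0.33 (SE 0.05), CD96 at 0.27 (SE 0.08), LAMP1 at 0.25 (SE 0.03) and CD6 at 0.17 (SE 0.05) upward and CTSC at -0.88 (SE 0.14) and CD58 at -0.30 (SE 0.07) downward. The adjusted p of these 8 ran from 3.2e-06 (LAMP1) to 0.0257 (LTB). All 8 had passed at 1 d against -8 d in the other direction. The same arrays of 1 d enter both comparisons, so the reversals are no separate evidence. With only the cows with all 3 days, 3 rose and 1 fell. For diet, 0 of 60 passed on each day by limma (0%, 0.0109% and 0% of all genes passed). An unadjusted p under 0.05 was reached by 8, 2 and 1 of the 60, and by 393, 755 and 278 of the 9155 genes. For diet by time 0 passed (0% of all genes), with 3 and 4 of the 60 and 693 and 266 of the 9155 genes unadjusted. Within the diets, 8 of the 60 other T and NK cell genes fell and 2 rose from -8 d to 1 d in HIGH (8.78% of all genes fell and 12.8% rose), with a median of -0.18. In CON 1 fell and 0 rose (3.23% and 4.8% of all genes), with a median of -0.06. CON had 5 and 4 arrays and HIGH 5 and 6 on these days. The difference between the diets was past the threshold by limma for 0 of the 60, of which 3 had an unadjusted p under 0.05 (693 of the 9155 genes did). At -8 d 49 of the 60 were higher in HIGH by a median of 0.13, against 48.1% of all genes higher and a median of 0.00, and without cow 445 it was 48 of 60 and 0.09. Markers of some other cell types were higher in HIGH on that day too. These were 11 of 12 of Kupffer cells and macrophages (median 0.26), 8 of 9 of neutrophils (0.12) and 2 of 2 of platelets (0.38). In the first 2 of these lists 0 passed by limma, with 3 and 1 at an unadjusted p under 0.05. Other lists were not shifted that way, with 8 of 14 hepatocyte markers higher (median 0.01), 5 of 11 endothelial (-0.05) and 4 of 12 stellate (-0.03). The same held for 3 of 7 cholangiocyte (-0.05), 2 of 6 erythroid (-0.01), 2 of 5 B and plasma cell (-0.06) and 0 of 1 dendritic cell markers. The part of any of these was not tested.

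Cows differed from one another in these genes on all their days. Once the means of the 6 groups were removed, 73% of the variance of CD3G lay between cows (share 0.73), and 2.2% of all probe sets had a share at least that high, with a median share of 0.16. The share was 0.40 for GZMB (19.2% of probe sets at least as high) and 0.29 for PRF1 (30.7%). It was 0.14 for the brightest CD2 probe set (52.9%) and -0.01 for CD5 (75.5%), both below the median share. A value near 0 means that a cow's arrays were no more alike than those of different cows.

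The CD3G share rested largely on 1 animal. Cow 445 (CON) was the lowest CON array for CD3G and PRF1 on all 3 days, with CD3G at 5.50, 5.33 and 5.16 and PRF1 at 6.19, 5.98 and 5.62. Its mean deviation from the group means was -0.77 for CD3G, -0.33 for PRF1, -0.26 for GZMB and -0.07 for both CD2 and CD5. Cow 512 (HIGH, 2 arrays) was next for CD3G and PRF1, at -0.39 and -0.17, and cow 460 (HIGH) for GZMB, at -0.23. Cows 432 (HIGH) and 483 (CON) were above their group means for all 5 genes, and cow 439 (HIGH) was below for none. Without cow 445 the share was 0.32 for CD3G (30.1% of probe sets at least as high), 0.29 for GZMB (34.0%) and 0.08 for PRF1 (63.4%).

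**Figure D5:**
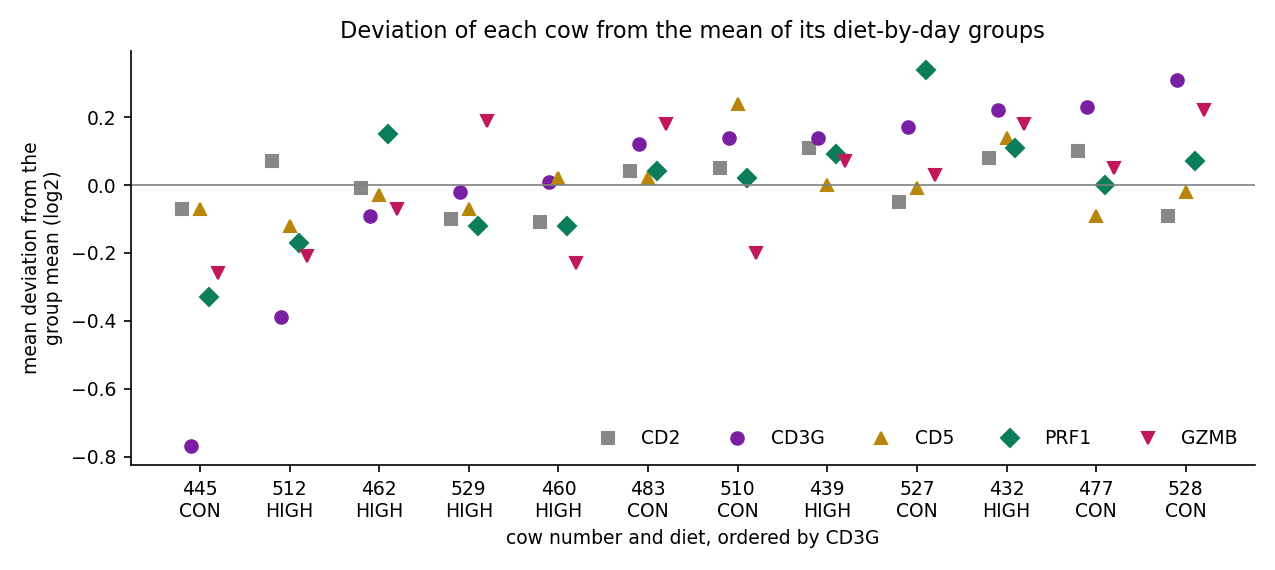
Mean deviation of each cow from the means of its diet-by-day groups (vertical axis, log2) for the brightest probe set of the 5 genes (symbols), with the 12 cows ordered by CD3G (horizontal axis). Cow 445 lies at -0.77 for CD3G and below 0 for all 5 genes, and CD2 stays between -0.11 and 0.11.

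The deviations of the 5 genes were compared pair by pair. Over the 12 cows, Pearson's r was 0.74 for CD3G and PRF1 (Spearman's rho 0.52), with two-sided p of 0.0282 and 0.073 by permutation of cows within diets (100000 resamples) and 0.141 and 0.365 after adjustment over the 10 pairs. For CD3G and GZMB r was 0.67 and rho 0.60, with permutation p of 0.00711 and 0.0328 and adjusted values of 0.0711 and 0.328. Without the 2 cows farthest from the median of CD3G (445 and 512) r was 0.27 and 0.43, so both relations rest largely on these cows. No pair passed after adjustment. The r of PRF1 and GZMB was 0.50 (rho 0.47, permutation p of 0.121 and 0.145), that of the 4 pairs with CD2 lay between 0.10 and 0.23, and CD5 gave 0.43 with CD3G, 0.32 with PRF1 and 0.00 with GZMB. Without the 2 cows farthest from the median of CD5 (432 and 510), r was 0.48 for CD5 and PRF1. Without the 2 farthest from the median of PRF1 (445 and 527), it was 0.42 for PRF1 and GZMB. Different cows were left out for different pairs, so these values do not rank the pairs.

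Across the 32 arrays, again after removing group means, the genes most like the mean of the 5 (each scaled to the same spread) were LOC510988 (r = 0.83), CD52 (a lymphocyte surface glycoprotein; 0.79), CD96 (0.76), CTSW (cathepsin W of cytotoxic cells; 0.74) and LCK (the kinase that starts T cell receptor signalling; 0.73). The least alike were DSC1 (-0.65), PROKR1 (-0.65) and TMLHE (-0.64). The arrays share cows and normalization, so these are descriptions. Of the 60 other T and NK cell genes 15 were among the 100 highest of 9150 genes, and their median r was 0.26 against -0.01 over all. Without cow 445 the first 5 were at 0.74, 0.69, 0.61, 0.62 and 0.68, CCL5 (a chemokine of T cells) came first at 0.74, and TMLHE was at -0.12.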

How the data were processed

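Liver RNA of 12 cows was measured on 32 Affymetrix bovine arrays. The authors made the deposited log2 values with Affymetrix Expression Console 1.1 and RMA, per the submitters' processing notes; the settings are not given in the sources used here. RMA forces arrays to a common distribution and compresses changes of dim and bright probe sets. Precision is limited by how many arrays there are, and no detection calls were used.

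After 112 control probe sets were left out, limma 3.58.1 (R 4.3.3) fitted 6 group means to 24016 probe sets without a filter, treating cow as a random block (estimated correlation 0.138), with a trend of variance on level and 26 residual degrees of freedom. Tests were two-sided. Within each contrast, p-values of all probe sets were adjusted together (Benjamini-Hochberg), and values under 0.05 passed. A list gene with several probe sets was represented by its brightest one. The platform annotation gives 13292 probe sets 1 symbol, 86 several and 10638 none. The fit was tested on simulated data.

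Cow numbers in the labels pair the arrays: deviations of the same cow on 2 days correlated with a mean r of 0.323 (0.229 to 0.464, 28 pairs), those of other cows of the diet with -0.064 (142 pairs). The title numbers do not mark the cow in every group. All arrays of a cow come from 1 animal, and n counts arrays of different cows.

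The members and lists were chosen with earlier results of these data known. Named were the 5 members, up to 3 list genes with the smallest p per list among those past the threshold, further list genes described after their values were seen, and the 5 most and 3 least alike genes. Alternatives were cow fixed or ignored, complete cows, a level filter, no trend, array weights, median centring, probe set means, and each array left out; leaving out cow 445 was chosen after seeing the data.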

Additional observations from a re-analysis of the deposited data

Results flagged for a closer look

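Of 42 groups of arrays (7 probe sets in 6 groups), 3 held an array further from the rest than Dixon's limit allows, where chance gives about 1 in 20. CD3G in cow 445 was at 5.16 in CON at 9 d, below the next lowest value of that group by more than 1 on the log2 scale, and this cow was also the lowest of its group at -8 d and 1 d. The brightest CD2 probe set was at 6.78 in cow 477 in CON at -8 d, and at 6.24 in cow 483 in CON at 9 d, a group in which the other 5 values lay between 6.10 and 6.11.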

How the results depend on the processing

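No member passed for diet or diet by time under any alternative. For the members' changes over time, which were not tested, 6 of the 7 member probe sets were below 0 at 1 d in each fit with 1 array left out and in the other alternatives, except that a level filter left 4 (all 4 below 0) and the mean of probe sets left 5 genes (all 5 below 0). Pairing by cow: with cow as a fixed replicate block (not run for diet, which lies between cows) SH2D1A (-0.31, adjusted p = 0.0937) and NCR3 (-0.18, adjusted p = 0.0985) lost their limma calls at 1 d, and with no replicate block IKZF3 (-0.26, adjusted p = 0.101) did too. With 1 array left out NCR3 lost its call in 21, IKZF3 in 17, SH2D1A in 11 and CD6 in 4 of 32 fits. The count of other T and NK cell genes that fell at 1 d then ran from 7 to 15. With only the cows with all 3 days it was 7, and CD6, KLRB1 and CCL4 lost their 1 d calls as well. From 1 d to 9 d 3 rose and 1 fell in these cows. With 1 array left out the rises of CD96 and LTB from 1 d to 9 d each lost their call in 3 of 32 fits. At 9 d against -8 d, where none passed, 1 rose with a fixed block, a level filter (mean of at least 5), array weights, median centring, the mean of probe sets or without cow 445. There 1 fell with array weights and 2 without cow 445, and leaving out 1 array gave 0 to 1 in each direction.

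Diet differences near 0 changed sign. With only the cows with all 3 days GZMB was at 0.06 at -8 d and 0.09 at 9 d, and diet by time at 1 d was -0.03 for GZMB and 0.06 for the brightest CD2 probe set. Without cow 445 CD3G at 9 d was at -0.09 and PRF1 at -8 d at -0.04. With 1 array left out the diet difference ran from -0.06 to 0.20 for CD3G at 9 d, from -0.04 to 0.14 for CD5 at 1 d, from -0.02 to 0.12 for PRF1 at -8 d, and for GZMB from -0.09 to 0.05, -0.02 to 0.18 and -0.09 to 0.03 on the 3 days. For CD2, diet by time at 1 d ran from -0.14 to 0.01 (brightest) and -0.04 to 0.24 (second), and at 9 d from -0.15 to 0.03 (second) and -0.02 to 0.08 (dimmest). The cause was not tested.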
